A study of Mus musculus with 6 samples.

Results

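The genes described here are 7 adhesion molecules of leukocytes and myoblasts, taken by name from a table of 49592 mouse genes: Icam1, Vcam1, Ncam1, Jam2, Jam3, Cdh2 and Cdh15. RNA came from C2C12 cells, mouse myoblasts that stop dividing and fuse into myotubes once serum is withdrawn. Cells were grown in medium with 10% fetal bovine serum and differentiated for 3 days in 2% horse serum. They were then given TWEAK, a cytokine of the TNF superfamily, at 10 ng/ml for 12 h (3 libraries), or left untreated (3 libraries), and nothing else in the labels separates the groups. The libraries are numbered as trials 1, 2 and 3 in each group, and nothing in the labels says that trials were independent cultures. The p-values below therefore measure library-to-library spread, which may be technical. The title of the series names TWEAK, alternative NF-kB signalling and myoblast fusion as its subject, and the comparison of treated with untreated cultures is the one its design gives.

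Cdh2 and Cdh15 encode classical cadherins and the other genes adhesion molecules of the immunoglobulin type. ICAM-1 and VCAM-1 are best known from endothelium, where inflammatory cytokines induce them through NF-kB and they capture leukocytes by binding β2 and α4 integrins. Cadherins join cells of a like kind through calcium-dependent contacts linked to actin by catenins, and N-cadherin (Cdh2) and M-cadherin (Cdh15) do so between myoblasts. NCAM-1 is a surface marker of myoblasts and regenerating fibres. JAM-B (Jam2) and JAM-C (Jam3) bind each other across the contact, a pairing that zebrafish fast muscle needs for myoblast fusion.

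The libraries held 29967141 to 40904058 recovered reads, of which 2.12% to 2.88% were mitochondrially encoded. All 10 muscle markers were measured and summed to 8890 to 9952 FPKM with TWEAK and 9768 to 10856 FPKM without. Of these, 4 fell (6.10% of all genes tested did) and 0 rose (8.98% did). The falls were led by the myosin genes Myh8 and Myh3 and by Actn2, the gene of the Z-disc protein α-actinin-2. The other was Myod1, whose call was lost without 3 of 6 single libraries (adjusted p up to 0.0801). FPKM are fragments scaled to gene length and library size, so levels can be set side by side between genes. The 8 endothelial markers summed to 0.898 to 1.41 FPKM with TWEAK and 0.954 to 1.21 FPKM without. Most of that was Cldn5, at 0.731 to 1.28 FPKM with TWEAK and 0.784 to 1.05 FPKM without. Of the others, Emcn and Tie1 were at 0, Esam reached 0.108 FPKM in 1 library, and Pecam1 and Cdh5 were at or below 0.037 FPKM in each library. The 9 leukocyte markers summed to 2.32 to 3.45 FPKM with TWEAK and 2.21 to 2.44 FPKM without, most of it Cd68 and Itgb2, with Adgre1 and Cd3e at 0. Only 1 endothelial and 2 leukocyte markers reached the mean of 0.5 FPKM needed for testing. Of these 0 were called, against 15.1% of all genes tested. With the trial as a replicate block Itgb2 was higher (limma adjusted p = 0.0307), as were 15.4% of all genes tested. The part of such cells in the results below was not tested. Among 6 markers of proliferation 5 rose (8.98% of all genes tested did) and 0 fell, led by Mcm7, Pcna and Top2a, with Cdk1 and Mki67. The Mki67 call (limma adjusted p = 0.0482) was lost without 5 of 6 single libraries. Their sum was 162 to 213 FPKM with TWEAK and 90.3 to 119 FPKM without. The part of cycling cells in the results below was not tested, and fewer cells of a type and less RNA per cell cannot be told apart in bulk RNA.

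The 7 genes did not change as one group with TWEAK. The leukocyte ligands Icam1 and Vcam1 rose, Jam2 fell, and Jam3, Ncam1, Cdh2 and Cdh15 did not pass. All 7 were above the minimum of a mean of 0.5 FPKM, Icam1 through its TWEAK libraries alone. With limma on log2(FPKM + 1) and p-values adjusted over all 12770 genes tested, 2 of the 7 rose, against a background of 8.98% of genes that rose, and 1 fell, against 6.10%. The median log2 fold change of the 7 was 0.04, beside 0.01 for all genes tested. The groups did not overlap in 4 of the 7, against 35.9% of all genes tested: TWEAK was above in 2 (Icam1 and Vcam1; background 20.0%) and below in 2 (Jam2 and Cdh2; background 15.9%). Limma-voom on the recovered reads called the same number as limma on FPKM, 3 of 7 against 16.6% of genes, with 2 higher (9.55%) and 1 lower (7.09%).

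**Figure D1:**
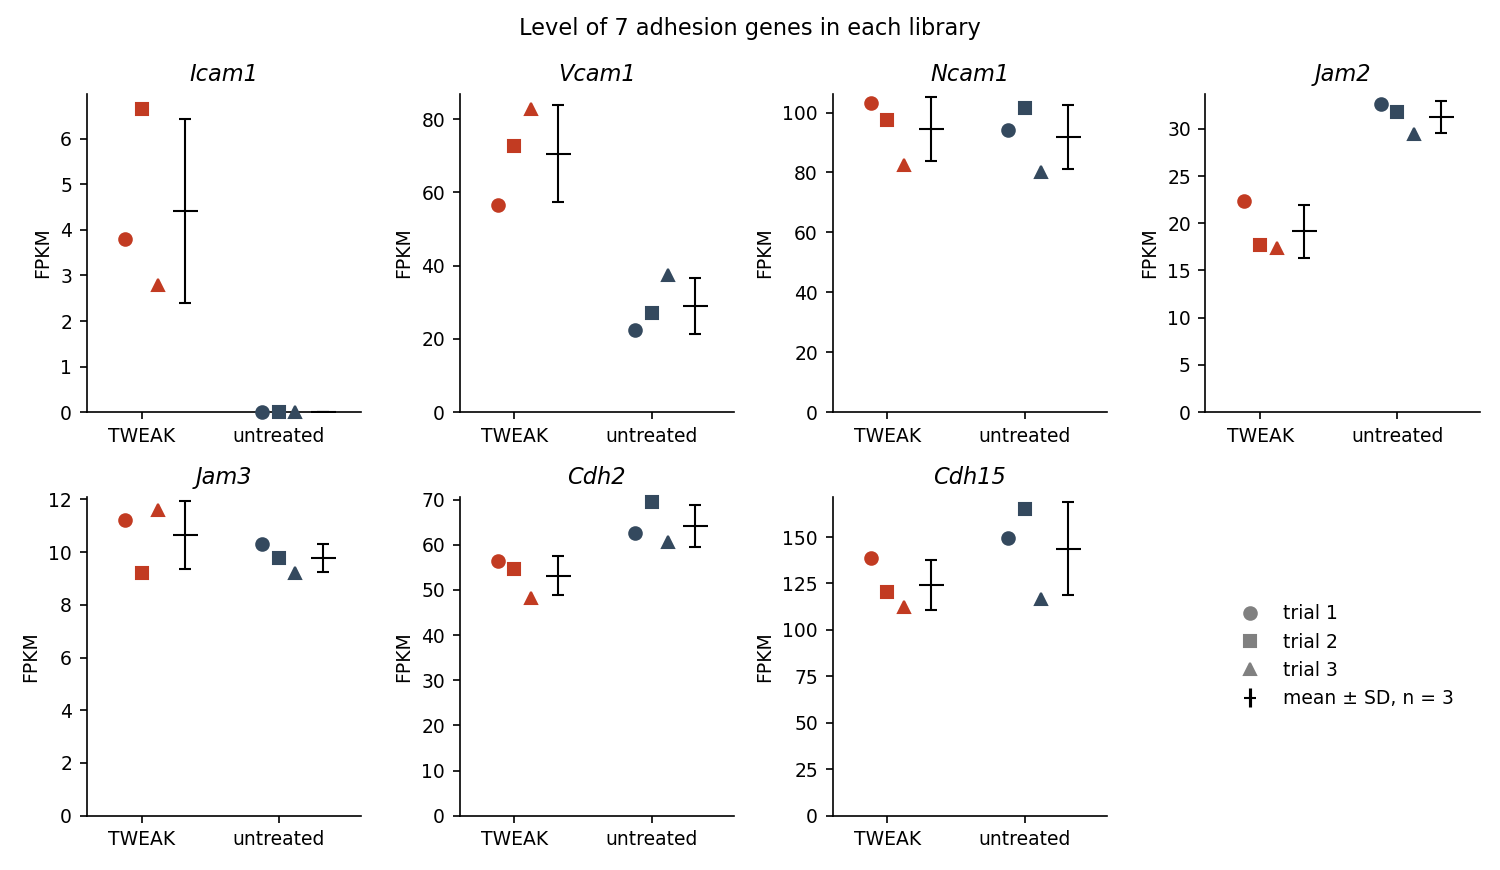
Level of each of the 7 genes in FPKM (y axis, linear, from 0) in the 3 TWEAK libraries and the 3 untreated libraries; marker shapes give the trial, and black bars the mean ± SD (n = 3). Icam1 lay between 2.78 and 6.66 FPKM with TWEAK and at 0.0119 FPKM or less without, Jam2 was lower in every TWEAK library, and the Ncam1, Jam3 and Cdh15 groups overlapped.

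Icam1, which encodes the ligand of the leukocyte integrins LFA-1 and Mac-1, was present in every TWEAK library and close to undetected in untreated cultures (ENSMUSG00000037405.9, GRCm39 chromosome 9, 20927281 to 20940113). It had 293, 587 and 210 reads with TWEAK in trials 1, 2 and 3, against 1, 0 and 1 reads untreated. These were 3.80, 6.66 and 2.78 FPKM with TWEAK, against 0.0119, 0 and 0.00973 FPKM untreated. The treated libraries differed among themselves by more than counting error: the 95% exact Poisson interval of the trial 2 library, 6.13 to 7.22 FPKM, lay above that of trial 1, 3.38 to 4.26 FPKM, which lay above that of trial 3, 2.42 to 3.18 FPKM. The same intervals reached up to 0.0664, 0.0443 and 0.0542 FPKM in the untreated libraries. Taking 3 reads as the limit that a count of 0 allows gives 0.0360 FPKM in the untreated library of trial 2.

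The ratio of pooled Icam1 reads was 611 (1090 reads with TWEAK, 2 without, scaled to library size; 95% exact binomial interval 169 to 5052, which covers counting error only). On the log2(FPKM + 1) scale the fold change was 2.36 (SE 0.21, limma adjusted p = 0.000192), the ninth largest rise of all genes tested. That scale compresses a gene near 0. The log2 fold change was 5.31 with a pseudocount of 0.1 and 8.50 (SE 0.85) with limma-voom on the recovered reads. The authors' deposited table, whose fit also rests on libraries not analysed here, gives 9.22 (SE 1.06, adjusted p = 5.61e-16). Even so, treated cultures held less Icam1 RNA per length than any other member, at 4.41 ± 2.01 FPKM (SD, n = 3), which is the 33.0th percentile of the level of all genes tested.

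Start-site windows in RefSeq (GRCm38.p6) were found for 2 of the 7 genes, Icam1, the member that rose most, and Cdh15, the most abundant member, and they are shown to set the 2 side by side. Each runs 5′ to 3′ on the plus strand from 250 bases before the start site to 50 bases after it. The Icam1 window lies at chr9:21015690-21015989 and the Cdh15 window at chr8:122848124-122848423. Capitals in the Icam1 window mark GGAAATTCC and a match, on the reverse strand, to the general shape of an NF-kB site, GGG and CC with any 5 bases between them. In the Cdh15 window capitals mark CANNTG, the general shape of an E-box, which does not tell which factor could bind. Matches to CANNTG in the Icam1 window are left in small letters.
Icam1: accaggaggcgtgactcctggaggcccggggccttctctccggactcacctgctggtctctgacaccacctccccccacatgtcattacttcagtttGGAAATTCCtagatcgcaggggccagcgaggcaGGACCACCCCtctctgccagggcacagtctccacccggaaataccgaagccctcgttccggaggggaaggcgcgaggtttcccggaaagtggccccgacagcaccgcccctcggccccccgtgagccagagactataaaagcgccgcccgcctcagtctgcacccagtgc
Cdh15: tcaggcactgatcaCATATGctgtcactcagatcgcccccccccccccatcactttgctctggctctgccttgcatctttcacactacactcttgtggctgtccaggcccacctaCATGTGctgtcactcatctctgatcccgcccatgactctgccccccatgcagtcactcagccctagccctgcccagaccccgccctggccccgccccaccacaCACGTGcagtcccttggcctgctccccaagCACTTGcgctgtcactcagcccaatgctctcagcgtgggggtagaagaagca

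GGAAATTCC, chosen after these letters were seen, lies from -153 to -145 of the Icam1 start site, and 0.317% of the 32851 windows hold it on either strand. The looser NF-kB shape, which matches from -120 to -111, is in 50.8% of windows and also matches once in the Cdh15 window, from -49 to -40 on the reverse strand. CANNTG occurs 4 times in the Cdh15 window, at -236, -135, -32 and -2, and 2 times in the Icam1 window, at -204 and -174, and 72.3% of windows hold it. GGAAATTCC does not overlap the other matches. A match describes letters and shows no binding.

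Icam1 sits at the head of a run of ICAM genes, and its neighbours Icam4 and Icam5, which encode ICAM family members of red cells and of neurons, also had more reads with TWEAK. Icam4 begins 556 bases after the Icam1 gene ends. It had 43 reads with TWEAK and 1 without, a ratio of 48.2 (95% exact binomial interval 8.20 to 1948). Icam5 had 145 reads with TWEAK and 35 without, a ratio of 4.65 (3.19 to 6.93). Over the 6 libraries both lay below the expression minimum, at 0.448 ± 0.207 FPKM with TWEAK and 0.00980 ± 0.0170 FPKM without for Icam4, and at 0.512 ± 0.177 FPKM with TWEAK and 0.113 ± 0.0278 FPKM without for Icam5 (SD, n = 3 each). Neither gene's groups overlapped. Fitted with no minimum, the limma adjusted p was 0.0493 for Icam4 and 0.0577 for Icam5. The authors' deposited table, whose fit also rests on libraries not analysed here, gives Icam5 a log2 fold change of 2.19 (SE 0.41, adjusted p = 3.04e-06). A long noncoding gene, Gm47079, overlaps Icam1, Icam4 and Icam5 and had 10 reads with TWEAK and 2 without. Vcam1, Ncam1, Jam3 and Cdh2 also overlap long noncoding genes. Whether counting used strand is not given in the sources used here, so reads of overlapping genes cannot be told apart.

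**Figure D2:**
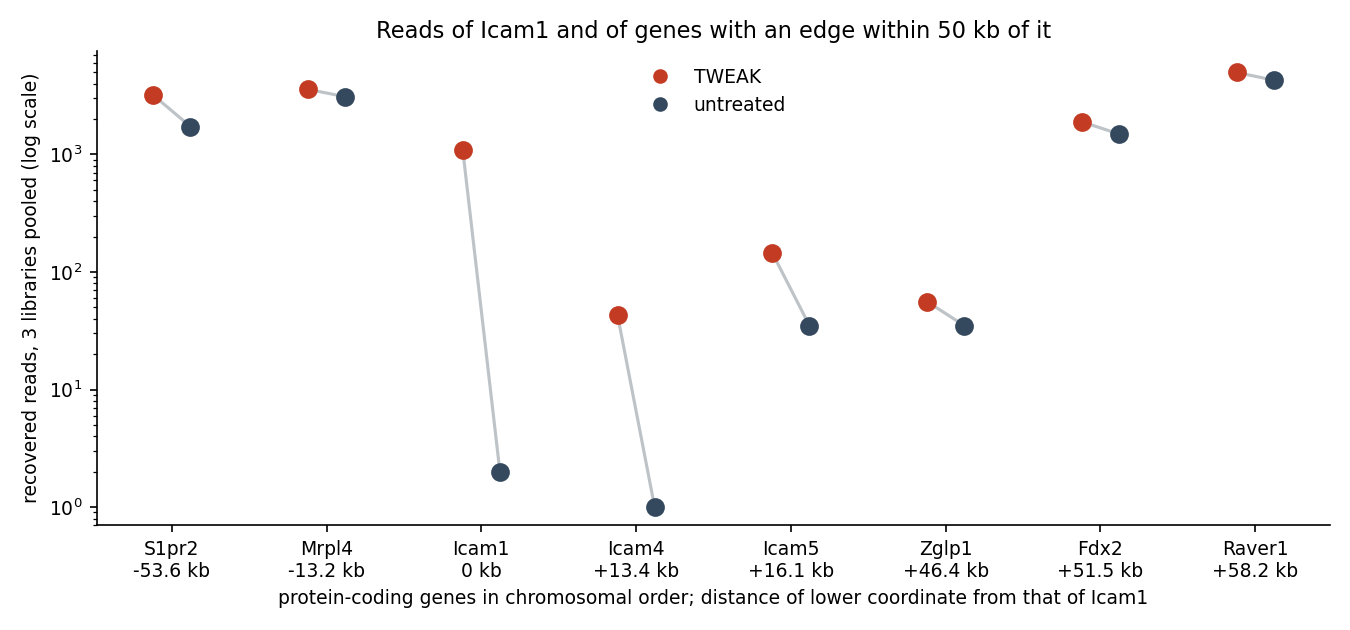
Recovered reads, pooled over 3 libraries per group (y axis, log scale), for Icam1 and the protein-coding genes with an edge within 50 kb of it, in chromosomal order with the distance of each lower coordinate from that of Icam1; TWEAK is left and untreated right in each pair. The reads are not scaled to library size. Icam1 had 1090 reads with TWEAK and 2 without and Icam4 had 43 and 1. Mrpl4 on the other side had 3569 and 3091, and it too was called higher (limma adjusted p = 0.011).

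Vcam1 encodes the ligand of α4β1 integrin, and its RNA rose with TWEAK from a level that was already high in untreated cultures (ENSMUSG00000027962.15, GRCm39 chromosome 3, 115903598 to 115923337). It stood at 56.4, 72.5 and 82.8 FPKM with TWEAK in trials 1, 2 and 3, against 22.5, 27.0 and 37.6 FPKM untreated. The lowest treated library was above the highest untreated one. In both groups trial 1 was lowest and trial 3 highest, so that the within-trial log2 ratios of FPKM, 1.33, 1.43 and 1.14, varied less than the levels did. The means were 70.6 ± 13.3 FPKM with TWEAK and 29.0 ± 7.76 FPKM without (SD, n = 3 each), a 2.43-fold difference (log2 fold change 1.27, SE 0.18, limma adjusted p = 0.00272). With the trial as a replicate block the SE fell to 0.07. In the order of levels Vcam1 was number 3 of the 7 genes with TWEAK and number 5 untreated.

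The gene of the integrin chain that binds VCAM-1 fell. Itga4, the gene of integrin α4, was at 0.704 ± 0.0295 FPKM with TWEAK and 1.52 ± 0.217 FPKM without, with a limma adjusted p of 0.00482 (log2 fold change -0.56, SE 0.09). The gene of its partner chain, Itgb1 or β1, was at 368 ± 18.4 FPKM with TWEAK and 419 ± 20.4 FPKM without (limma adjusted p = 0.154). Of the 8 integrin genes listed as partners of ICAM-1, VCAM-1 and the JAMs, 3 were tested, 0 rose (background 8.98%) and 1 fell (6.10%). With the replicate block 1 rose (background 15.4%) and 1 fell (12.5%). Under that block Itgb2, the chain shared by the ICAM-1 receptors, had an adjusted p of 0.0307. Itgal, the α chain of LFA-1, stayed at or below 0.0567 FPKM in every library, and Itgax was at 0. Itgam, the α chain of Mac-1, was at 0.146 ± 0.0419 FPKM with TWEAK and 0.232 ± 0.0155 FPKM without. It had 16 to 41 reads a library, lay below the expression minimum, and did not pass when fitted with no minimum (limma adjusted p = 0.171).

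Jam2 was the member that fell. JAM-B RNA stood at 22.4, 17.7 and 17.4 FPKM with TWEAK in trials 1, 2 and 3, against 32.6, 31.8 and 29.4 FPKM untreated (ENSMUSG00000053062.17, GRCm39 chromosome 16, 84571011 to 84622816). All treated libraries lay below all untreated ones, and the untreated ones were close together. The means were 19.1 ± 2.82 FPKM with TWEAK and 31.3 ± 1.65 FPKM without (SD, n = 3 each; log2 fold change -0.69, SE 0.10, limma adjusted p = 0.00263). Within trials the log2 ratios were -0.54, -0.85 and -0.76. Each value rests on 2262 to 5209 reads.

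Jam3, which encodes the binding partner JAM-C, did not pass. Jam3 was at 11.2, 9.20 and 11.6 FPKM with TWEAK, against 10.3, 9.79 and 9.22 FPKM untreated, with overlapping groups (ENSMUSG00000031990.16, GRCm39 chromosome 9, 27008680 to 27066689). Its log2 fold change was 0.11 with a 95% interval of -0.10 to 0.32 (limma adjusted p = 0.46). At 621 to 726 reads a library, its counting error was 3.71% to 4.01%. The ratio of Jam2 to Jam3 FPKM was 1.80 ± 0.268 with TWEAK and 3.20 ± 0.0419 untreated (SD, n = 3 each). The 2 groups of ratios did not overlap. The exact two-sided permutation p was 0.1, the smallest that 3 against 3 libraries allow. It was 0.125 adjusted over the 5 ratios between members that were computed. The separate ranges of Jam2 and the narrow range of Jam3 fixed this outcome, so that p-value adds nothing to the Jam2 result. F11r, the gene of the third classical JAM, JAM-A, was higher, at 27.5 ± 3.27 FPKM with TWEAK and 20.4 ± 1.09 FPKM without (limma adjusted p = 0.0174). That call ended without TWEAK trial 2 (0.0641) or untreated trial 3 (0.0605).

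**Figure D3:**
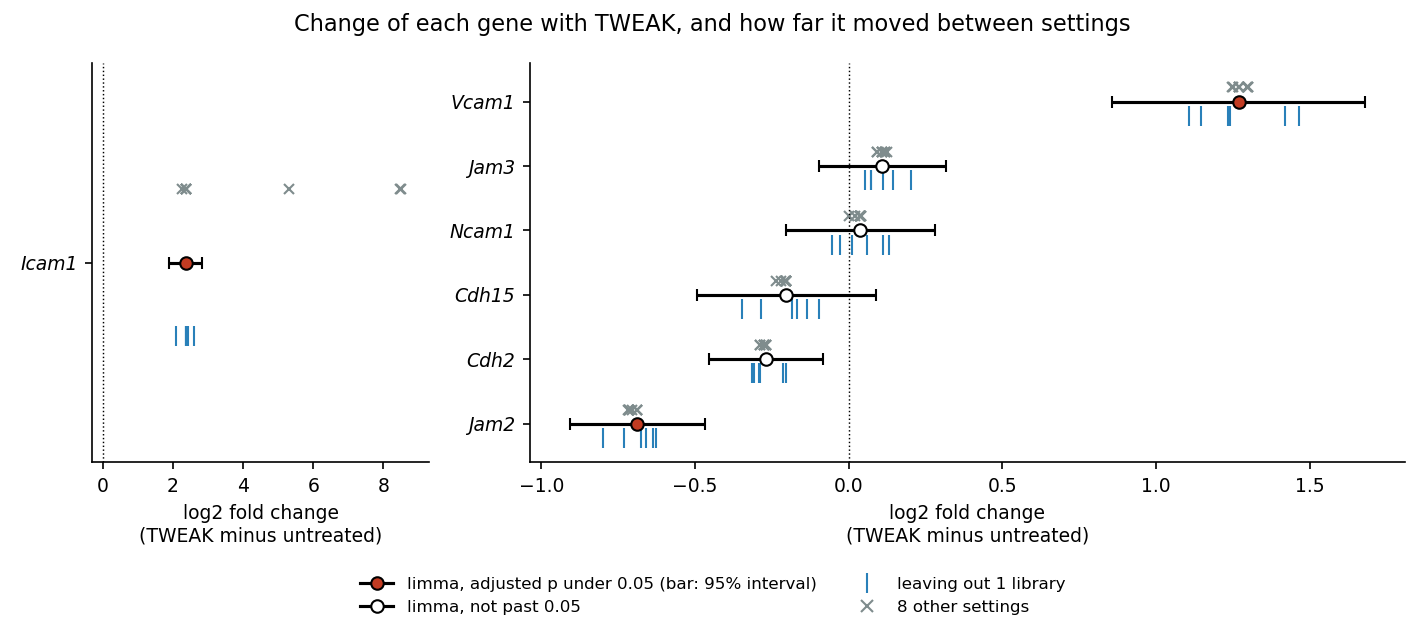
Log2 fold change of each gene, TWEAK minus untreated (x axis; Icam1 has its own scale), with limma's 95% interval; filled points passed an adjusted p of 0.05. Blue ticks leave out 1 library and grey crosses are 8 other settings, of which a pseudocount of 0.1 and the fits on recovered reads place Icam1 at 5.31 and 8.50; Vcam1 and Jam2 stayed on their side of 0 in each, and Ncam1 crossed it.

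The muscle cadherins were both lower on average with TWEAK, and neither passed. Cdh2, the gene of N-cadherin, was at 56.5, 54.7 and 48.3 FPKM with TWEAK, against 62.5, 69.5 and 60.7 FPKM untreated (ENSMUSG00000024304.15, GRCm39 chromosome 18, 16721934 to 16942303). Its groups did not overlap, which by itself makes the direction the same in each trial, and the log2 ratios were -0.15, -0.35 and -0.33. The log2 fold change was -0.27 (95% interval -0.46 to -0.08), with a limma adjusted p of 0.057. With the trial as a replicate block the adjusted p was 0.00806, and the block brought the count of members called to 4 of 7, against 27.9% of genes called in that fit. Of these, 2 were higher (background 15.4%) and 2 lower (12.5%). The authors' deposited table, whose fit also rests on libraries not analysed here, gives Cdh2 an adjusted p of 0.0227. It also calls 4 of the 7, against 20.6% of its genes, 2 of them higher (11.2%) and 2 lower (9.38%). Without TWEAK trial 1 the limma adjusted p was 0.0476.

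Cdh15, the gene of M-cadherin, was the most abundant member in both groups. It was at 139, 121 and 113 FPKM with TWEAK, against 150, 165 and 117 FPKM untreated (ENSMUSG00000031962.7, GRCm39 chromosome 8, 123574705 to 123594136). The groups overlapped, since the untreated library of trial 3 was below 2 of the treated ones. Its log2 fold change was -0.20, with a 95% interval of -0.49 to 0.09 (limma adjusted p = 0.328). It passed in 1 of 14 alternatives, the replicate block in limma-voom (adjusted p = 0.0454). That fit called 5 of the 7 genes, against 31.5% of all genes, with 2 higher (16.6%) and 3 lower (14.9%). The ratio of Cdh15 to Cdh2 was 2.33 ± 0.128 with TWEAK and 2.23 ± 0.268 without (SD, n = 3 each; exact two-sided permutation p = 0.7).

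Ncam1, the gene of NCAM-1, was at 103, 97.7 and 82.4 FPKM with TWEAK, against 94.1, 101 and 80.2 FPKM untreated (ENSMUSG00000039542.17, GRCm39 chromosome 9, 49413436 to 49710225). Both groups were lowest in trial 3. The log2 fold change was 0.04 with a 95% interval of -0.20 to 0.28 (limma adjusted p = 0.845), and its sign turned with quantile normalization or without TWEAK trial 1 or untreated trial 3. With 16121 to 22295 reads a library, its counting error was under 1% and the spread between libraries set the precision.

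With TWEAK the order of mean levels was Cdh15, Ncam1, Vcam1, Cdh2, Jam2, Jam3 and Icam1, at 124, 94.4, 70.6, 53.1, 19.1, 10.7 and 4.41 FPKM. Vcam1 overlapped both neighbours in that order, and the other neighbours had separate ranges. Untreated, the order was Cdh15, Ncam1, Cdh2, Jam2, Vcam1, Jam3 and Icam1, at 144, 91.9, 64.2, 31.3, 29.0, 9.77 and 0.00722 FPKM, and of these neighbours Jam2 and Vcam1 overlapped. The ratio of Vcam1 to Cdh2 was 1.35 ± 0.358 with TWEAK and 0.455 ± 0.143 without, and that of Vcam1 to Jam2 was 3.80 ± 1.15 with TWEAK and 0.938 ± 0.304 without. The ratio of Cdh15 to Ncam1 was 1.32 ± 0.0713 with TWEAK and 1.56 ± 0.0931 without (SD, n = 3 each). None of these 3 ratios overlapped between groups (exact two-sided permutation p = 0.1 each, 0.125 adjusted). For Vcam1 to Cdh2 and Vcam1 to Jam2 this was fixed in advance. Vcam1 lay wholly above, and Cdh2 and Jam2 wholly below, with TWEAK, so those p-values add nothing to the member results. The FPKM of the 7 genes summed to 358 to 392 with TWEAK and 334 to 405 without, with overlapping ranges.

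Across the 6 libraries, the genes whose log2(FPKM + 1) followed Icam1 most closely were Susd2, the chemokine gene Cxcl10 and Zswim4, at Pearson r of 0.999, 0.998 and 0.998. Those nearest to Vcam1 were Bri3, Wdr12 and Bend3, at 0.998, 0.997 and 0.997, and among those nearest to Jam2 were Cipc and Lrrc39, at 0.998 and 0.997. Bri3, Wdr12 and Bend3 did not pass (limma adjusted p = 0.0677, 0.0504 and 0.151), while the genes named for Icam1 and Jam2 did. With so few libraries such values are common: 370, 362 and 282 genes had an r above 0.95 with Icam1, Vcam1 and Jam2.

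Among the other adhesion genes of 8 lists, 108 in all, 65 were tested, of which 11 rose (background 8.98%), 8 fell (6.10%) and 46 did not pass, with a median log2 fold change of -0.00145 beside 0.01 for all genes. With the replicate block 15 rose (background 15.4%) and 16 fell (12.5%). Of 6 tested leukocyte and endothelial adhesion genes other than the members, 4 rose (background 8.98%) and 0 fell (6.10%). Cd47, the ligand of the inhibitory receptor SIRPα, was at 17.9 ± 2.57 FPKM with TWEAK and 11.7 ± 1.41 FPKM without (limma adjusted p = 0.0101). Cd34, a sialomucin of progenitor cells, was at 27.2 ± 5.27 FPKM with TWEAK and 13.5 ± 3.57 FPKM without (limma adjusted p = 0.0107). F11r (above) and Pvr, the gene of the poliovirus receptor, were the others that rose. The Pvr call (limma adjusted p = 0.0499) was lost whichever single library was left out. The selectin genes Sele and Selp were at or below 0.113 FPKM in every library.

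Of 14 other immunoglobulin-type genes tested, 1 rose (background 8.98%) and 3 fell (6.10%). With the replicate block 1 rose (background 15.4%) and 4 fell (12.5%). Cdon encodes a co-receptor that associates with cadherins at contacts between myoblasts, and it had 33.5, 28.4 and 26.6 FPKM with TWEAK, against 56.3, 66.1 and 59.7 FPKM untreated. That is a log2 fold change of -1.02 (SE 0.10, limma adjusted p = 0.000246). Nectin1, which encodes a partner of nectins on other cells, was the one that rose, at 2.48 ± 0.326 FPKM with TWEAK and 1.64 ± 0.190 FPKM without (limma adjusted p = 0.0257). Kirrel3 and Cadm4 fell, with limma adjusted p values of 0.0376 and 0.0434. Leaving out single libraries ended the calls of Nectin1 (4 of 6 libraries), Kirrel3 (6 of 6) and Cadm4 (5 of 6).

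Of 6 other cadherins tested, 1 rose (background 8.98%) and 2 fell (6.10%). Cdh11, a cadherin of mesenchymal cells, was at 5.86 ± 0.318 FPKM with TWEAK and 2.88 ± 0.388 FPKM without, a 2.04-fold difference (limma adjusted p = 0.000611). Cdh18 was at 1.43 ± 0.195 FPKM with TWEAK and 2.79 ± 0.352 FPKM without (limma adjusted p = 0.00398). Cdh1, the gene of E-cadherin, was at 0.492 ± 0.0743 FPKM with TWEAK and 0.961 ± 0.0988 FPKM without (limma adjusted p = 0.0182), and 3 of 6 single libraries decided that call. The levels of Cdh11, Cdh18 and Cdh1 were far below those of Cdh15 and Cdh2. Cdh13 was not low, at 74.4 ± 4.50 FPKM with TWEAK and 79.8 ± 5.43 FPKM without. Both means were above those of Cdh2, and Cdh13 did not pass (limma adjusted p = 0.426).

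Of 15 tested cytoplasmic partners of cadherins and JAMs, 1 rose (background 8.98%) and 1 fell (6.10%). With the replicate block 2 rose (background 15.4%) and 6 fell (12.5%). Ctnnd1, the gene of p120-catenin, which holds cadherins at the membrane, was at 47.5 ± 5.47 FPKM with TWEAK and 59.1 ± 1.41 FPKM without (limma adjusted p = 0.0393; lost without 5 of 6 single libraries). The GTPase gene Rap1b was at 58.5 ± 4.08 FPKM with TWEAK and 42.6 ± 4.52 FPKM without (limma adjusted p = 0.0106; 0.0514 without TWEAK trial 2). The catenin genes Ctnnb1 and Ctnna1 had log2 fold changes of 0.04 and -0.05 and did not pass. Of 9 linkers of ICAM-1 and VCAM-1 to actin, 1 rose (background 8.98%), Ezr, the gene of ezrin, and 0 fell (6.10%). With the replicate block 2 rose (background 15.4%) and 0 fell (12.5%). Ezr had a limma adjusted p of 0.043, lost without 5 of 6 single libraries.

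Of 5 tested genes of NCAM-1 polysialylation and co-receptors, 1 rose (background 8.98%) and 1 fell (6.10%). With the replicate block 1 rose (background 15.4%) and 3 fell (12.5%). Gfra1, the gene of a GDNF receptor that can pair with NCAM-1, was at 10.2 ± 1.28 FPKM with TWEAK and 14.7 ± 1.80 FPKM without (limma adjusted p = 0.0173; lost without 3 of 6 single libraries). Fgfr1 rose, with a limma adjusted p of 0.0432 that was lost without 5 of 6 single libraries. Among 7 tested sheddases of adhesion molecules 2 rose (background 8.98%) and 0 fell (6.10%). Adam8, a membrane metalloprotease of inflamed tissue, was at 8.63, 12.0 and 12.6 FPKM with TWEAK, against 3.18, 3.50 and 3.23 FPKM untreated (log2 fold change 1.47, SE 0.12, limma adjusted p = 0.000131). Adam19 had a limma adjusted p of 0.0438, lost without 5 of 6 single libraries, and Adam10 and Adam17, the main sheddases of cadherins and VCAM-1, had log2 fold changes of 0.06 and 0.07 and did not pass.

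**Figure D4:**
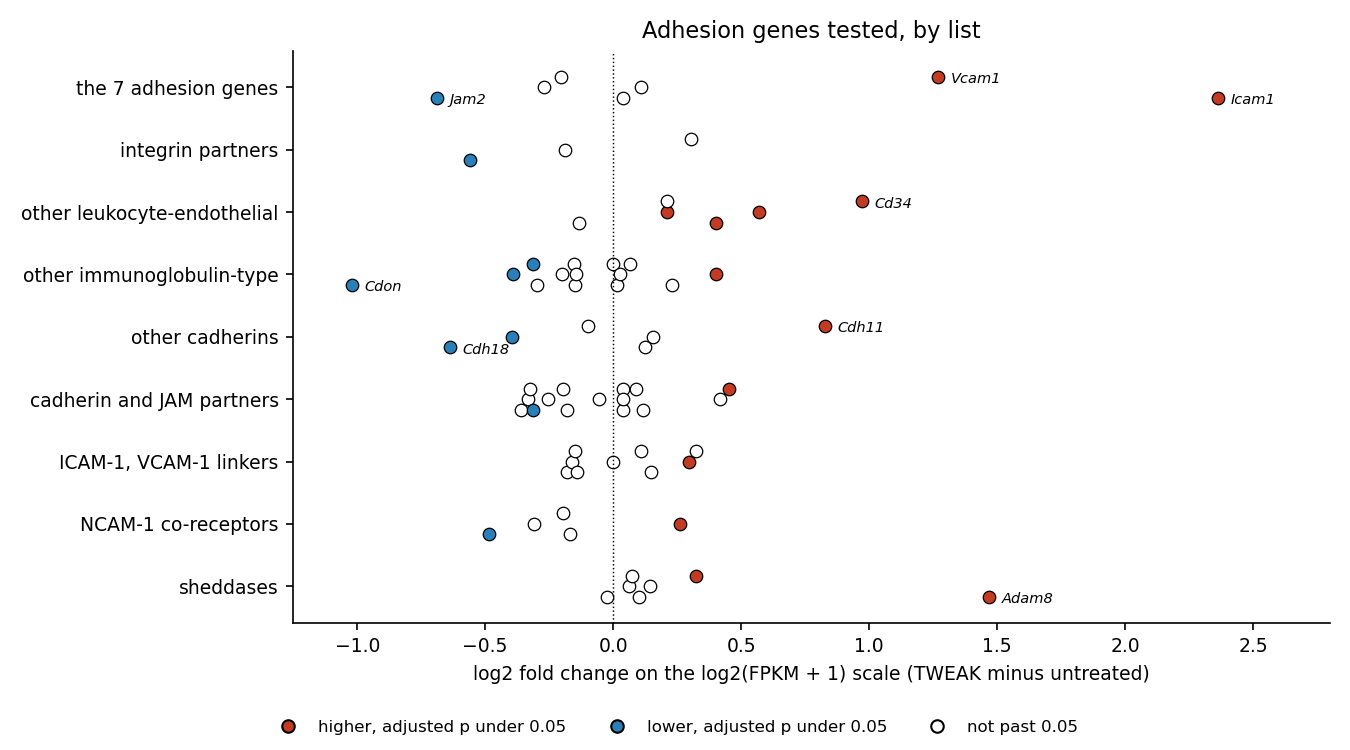
Change in mean log2(FPKM + 1), TWEAK minus untreated (x axis), of every tested gene of the 7 members and 8 other adhesion lists; red and blue points passed an adjusted p of 0.05 and white points did not. Icam1 at 2.36, Adam8 at 1.47 and Vcam1 at 1.27 lie farthest to the right, and Cdon at -1.02 farthest to the left.

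Genes of the TWEAK pathway give the setting of these changes. The receptor gene Tnfrsf12a was at 243 ± 36.6 FPKM with TWEAK and 246 ± 26.3 FPKM without. Nfkb2 and Relb, the subunits of alternative NF-kB, were 3.52-fold and 1.99-fold higher with TWEAK (limma adjusted p = 1.44e-05 and 8.77e-05).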

How the data were processed

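RNA of 6 C2C12 libraries was sequenced after poly(A) selection, 3 with TWEAK and 3 untreated. The submitters' processing notes name GRCm39 as the build and list DESeq2 1.22.2, HTSeq 0.6.1p2, STAR 2.6.0c and Trim Galore 0.5.0. Those notes, as given here, state no settings, no annotation release and nothing on strand. Per the file headers, the deposited table holds FPKM per library, a mean normalized count (a signal averaged over the libraries of the authors' fit), and the authors' log2 fold change, its standard error and p-values. For 2337 genes that mean is above 0 although each of the 6 libraries has 0, a mean that these libraries alone cannot give, so the authors' values also rest on libraries not analysed here.

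Whole reads were recovered from the FPKM, since each is a whole number of reads times a factor of the library and the gene's length; 126386 of 126386 nonzero values were whole (tolerance 1e-09, relative). A common factor had to be chosen, to match the authors' mean, in 265 tested genes, of which 0 were members. Genes with a mean of at least 0.5 FPKM were tested with limma 3.58.1 (R 4.3.3; trend, moderated) on log2(FPKM + 1), group as the only term, two-sided, Benjamini-Hochberg adjusted over all 12770 genes at 0.05. The fit was also run on simulated counts. These held no trial effect and only changes far smaller than that of Icam1. That run therefore cannot decide between the fits with and without the block, nor bear on Icam1. Fold changes on the log2(FPKM + 1) scale understate changes of low genes. Python 3.11.15 and scipy 1.17.1 gave intervals and exact tests; intervals and floors (3 reads) cover counting error only.

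Libraries of the same trial deviated together from their group means (r = 0.473, 0.218 and 0.434 in trials 1, 2 and 3), so a fit with the trial as a replicate block was run beside the unblocked one above, from which all calls come unless the block is named. The pairing comes from the data only, since the labels do not say what a trial shares. Members and lists were chosen with earlier results of these data known. Named genes were all members, up to 3 genes that rose and 3 that fell of each list by adjusted p, the most abundant gene of lists without calls, and the 3 tested genes with the highest correlation to each called member, predicted gene models left out, besides Tnfrsf12a, Nfkb2 and Relb. Icam4, Icam5, Mrpl4, Gm47079, Pvr, Cdk1, Mki67, Myod1, Myf5 and genes named at 0 or as not passing were chosen after their values were seen. Cd99 and Kirrel1 were not matched by name. Some items that the rule names are not reported here. No sequence of the other 5 members was used here.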

Additional observations from a re-analysis of the deposited data

How the results depend on the processing

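Icam1, Vcam1 and Jam2 kept their direction and their call in all 14 alternatives (highest adjusted p 0.0113, 0.0377 and 0.0302). Jam3 kept its direction and did not pass in any (adjusted p from 0.199 to 0.769). Cdh2 passed in 3 of 14 and Cdh15 in 1. The number of members that rose was 2 throughout, while the share of all genes that rose was 8.98% in the unblocked limma fit and 15.4% with the block. The number of members that fell was 2 with the replicate block (background 12.5%) and 3 with limma-voom and the block (14.9%). It was 1 to 2 when single libraries were left out, where 343 to 835 of all genes fell. Ncam1 had log2 fold changes of -0.00011 with quantile normalization, and -0.03 without TWEAK replicate 1, and ranged from -0.055 (without untreated replicate 3) to 0.13 as single libraries were left out. Of all genes, 1147 rose and 779 fell. With no minimum, which takes the genes tested to 26302, 499 and 302 did; 1965 and 1598 did with the replicate block and 2118 and 1903 with limma-voom and the block. Without single libraries 501 to 1266 rose and 343 to 835 fell, fewest without TWEAK replicate 2. In the other adhesion lists, 11 genes rose (background 8.98%) and 8 fell (6.10%). With no minimum 3 and 4 did, beside 499 and 302 of all 26302 genes. With the block 16 fell (background 12.5%). With limma-voom and the block 17 rose (background 16.6%) and 19 fell (14.9%). Without single libraries 4 to 10 of these genes rose and 3 to 10 fell, beside 501 to 1266 and 343 to 835 of all genes. The cause was not tested. Depth limits Icam1 in untreated libraries, Icam4 and Icam5. Counting error also weighs on other low genes, such as Kirrel3 (64 to 160 reads a library) and Cdh1 (56 to 188). The spread between 3 libraries limits the members other than Icam1, and Icam1 with TWEAK.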

Other observations

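Icam1 was not alone among its chromosomal neighbours. Of the protein-coding genes with an edge within 50 kb of it, 4 were above the expression minimum (S1pr2, Mrpl4, Fdx2 and Raver1), and each was called higher with TWEAK, against 8.98% of all genes tested; they were chosen after their values were seen. S1pr2, the gene of a sphingosine 1-phosphate receptor, was at 5.24 ± 0.236 FPKM with TWEAK and 2.53 ± 0.254 FPKM without (SD, n = 3 each; limma adjusted p = 0.000394). Fdx2, the gene of a mitochondrial ferredoxin, was at 20.9 FPKM with TWEAK and 14.7 FPKM without (limma adjusted p = 0.00454). The limma adjusted p was 0.011 for Mrpl4 (0.0596 without TWEAK replicate 2) and 0.0248 for Raver1, which lost its call without 4 of 6 single libraries (up to 0.107).

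Of 8 markers of undifferentiated or reserve myoblasts, cells that also carry Ncam1 and Cdh15, 2 rose (8.98% of all genes tested did) and 4 fell (6.10% did). With the replicate block 2 rose (background 15.4%) and 6 fell (12.5%), Pax7 and Spry1 being the further ones. The median log2 fold change was -0.42, and the list summed to 69.2 to 83.6 FPKM with TWEAK and 82.0 to 96.1 FPKM without. The genes that rose were Cd34 and Msc, and those that fell were Id3, Id1, Heyl and Myf5. The Msc call (limma adjusted p = 0.0222) was lost without 5 of 6 single libraries. Of 6 fibroblast and fibro-adipogenic markers 1 rose (background 8.98%), Cd34, and 0 fell (6.10%). Cd34 is on both marker lists and on that of leukocyte and endothelial adhesion genes. The fibroblast and fibro-adipogenic markers summed to 94.6 to 130 FPKM with TWEAK and 87.3 to 116 FPKM without. Their part in the results for adhesion genes was not tested.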
